A study of Mus musculus with 3 samples.

Results

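The constitutive proteasome subunits and their assembly factors are here the 46 rows, of 26661 in the deposited table, whose symbol is Psm followed by a letter from a to g and a digit. Of 51 such rows, the 3 immunoproteasome genes and 2 pseudogenes, Psma5-ps and Psmb7-ps2, were left out. The known roles of 45 of the 46 belong to the proteasome. Of these, 6 were grouped as activators and inhibitor (Psme1, Psme2, Psme2b, Psme3, Psme4 and Psmf1), outside the constitutive subunits and assembly factors. Psmc3ip entered through its name only: it encodes a recombination factor that binds an ATPase subunit and is no part of the proteasome. It is described apart but stays in every count, median and sum over the 46. Psma8 encodes an alpha subunit known from testis, and Psme2b is a near copy of Psme2.

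The 26S proteasome is the protease that degrades ubiquitin-tagged proteins in the cytosol and nucleus. Its barrel, the 20S core, stacks rings of alpha subunits (Psma genes) outside rings of beta subunits (Psmb genes), and the cutting sites lie on 3 of the beta subunits. The 19S cap recognises and unfolds substrates; it holds a ring of ATPases (Psmc genes) and a set of subunits without ATPase activity (Psmd genes). Other caps (Psme genes) open the barrel in place of the 19S cap, and dedicated chaperones (Psmg genes and some Psmd genes) put the pieces together. In macrophages the proteasome destroys the inhibitor of NF-kB after toll-like receptor signals and makes peptides for display on MHC class I. Interferon can make cells swap the catalytic beta subunits for Psmb8, Psmb9 and Psmb10, the immunoproteasome subunits.

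All values come from RAW264.7, a mouse macrophage line derived from a virus-induced tumour and wild type per the labels. One library was made from cells given harmine at 10 µM for 0.5 h and then lipopolysaccharide (LPS, a bacterial membrane glycolipid) at 0.5 µg/ml for 6 h, 1 from cells given the same LPS without harmine, and 1 from untreated control cells. Harmine, a beta-carboline from plants, is known as a blocker of monoamine oxidase A and of the kinase DYRK1A. With 1 library per group and no library of harmine without LPS, differences between cultures are part of each value below, no p-value was computed, and an action of harmine on the LPS response cannot be told apart from one that does not need LPS. In such bulk libraries fewer cells of a type and less RNA per cell cannot be told apart either.

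The deposited counts summed to 56391972 in harmine plus LPS, 52845589 in LPS and 58169999 in control. The 46 genes held 0.759% of them in harmine plus LPS, 0.878% in LPS and 0.687% in control, and the least covered value was 504 counts. As to the labelled cell type, all 9 macrophage markers were at 1 FPKM or more in each library, and their summed level was 1586 FPKM in harmine plus LPS, 2021 FPKM in LPS and 2141 FPKM in control. The sum hides opposite differences. Against control, Adgre1, Cd14, Spi1 and, barely, Ptprc were higher in LPS, and Cd68, Csf1r, Fcgr1, Itgam and Lyz2 lower. Cd14 had 813 FPKM in LPS and 231 FPKM in control, and Csf1r 65.8 FPKM in LPS and 259 FPKM in control. The labels give lung as tissue; 3 of 8 lung epithelial markers were found, none of them at 1 FPKM, and Sftpb was at 0 in harmine plus LPS and in control. The summed level of 4 general epithelial markers was 19.1 FPKM in harmine plus LPS, 13.0 FPKM in LPS and 4.17 FPKM in control, with 4, 2 and 1 of them at 1 FPKM in that order of libraries. That of 5 fibroblast markers was 8.90 FPKM in harmine plus LPS, 8.998 FPKM in LPS and 1.251 FPKM in control, with 3, 3 and 0 of them at 1 FPKM. Their part in the differences below was not tested. Endothelial, T cell and B cell markers stayed under 1 FPKM.

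Transcripts of the proteasome subunits were abundant. FPKM, the unit used, is fragments per kilobase of transcript, scaled to the sequenced total. Every one of the 46 genes reached 1 FPKM in every library. Over the 31 constitutive subunits of barrel and cap, leaving Psma8 aside, the median level was 61.4 FPKM in harmine plus LPS, 70.7 FPKM in LPS and 61.4 FPKM in control. The 31 lay between 24.5 FPKM (Psma3) and 244 FPKM (Psma6) in harmine plus LPS, between 27.0 FPKM (Psma3) and 294 FPKM (Psma6) in LPS, and between 22.6 FPKM (Psmd11) and 148 FPKM (Psma5) in control. The 4 barrel chaperone genes were lower, at 10.6 to 27.0 FPKM in harmine plus LPS, 8.34 to 20.9 FPKM in LPS and 9.89 to 30.9 FPKM in control. Psmf1, Psmd9, Psmd5, Psma8 and Psme4 stayed under 11 FPKM in each library.

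**Figure D1:**
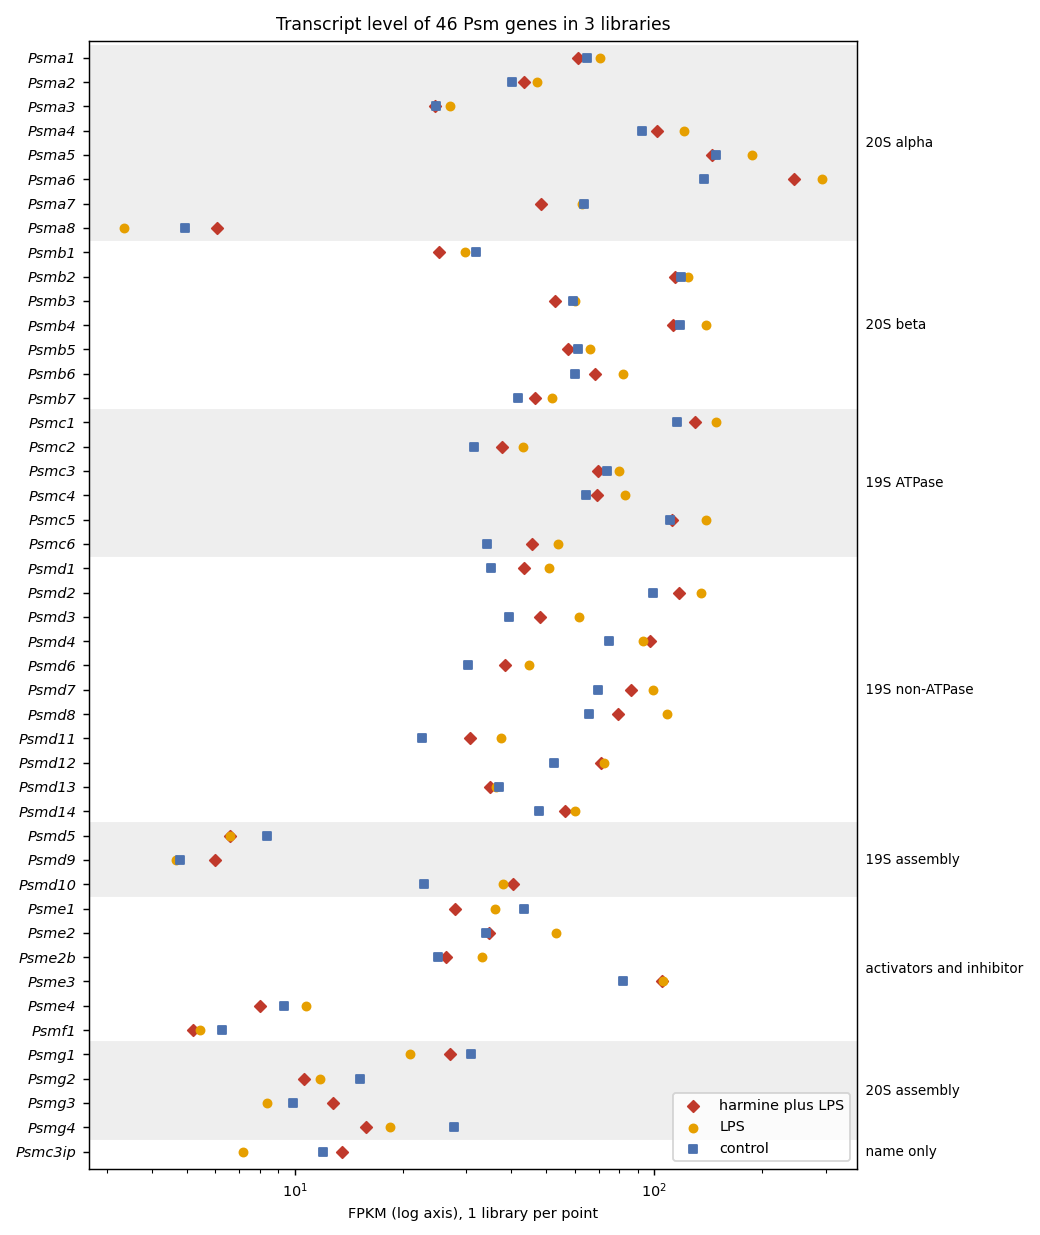
FPKM (log axis) of the 46 genes, 1 point per library, grouped by role with harmine plus LPS as diamonds, LPS as circles and control as squares. Among the subunits of barrel and cap the LPS point mostly lies to the right of the other two, while for the 20S assembly genes the control point lies to the right of the LPS point in all 4.

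The first comparison asked how 6 h of LPS altered the proteasome genes. Most subunit genes were modestly higher: 33 of the 46 genes were above control and 13 below, whereas 39.8% of the 12197 genes that reached 1 FPKM in any library were above control and 60.1% below. Among the 5395 genes that reached 10 FPKM, 40.2% were above and 59.8% below. The summed level of the 46 was 3074 FPKM in LPS and 2405 FPKM in control, and the median difference, as log2(FPKM + 1) in LPS minus that in control, was 0.31 against -0.13 for all genes. The differences were small. On this scale 7 genes exceeded control by at least 1.5-fold, beside 11.7% of all genes. Only 1 lay that far below it, beside 19.3%, and it was Psmc3ip, which is no part of the proteasome. At 2-fold, 1 gene, Psma6, exceeded control, beside 5.79% of all genes, and none lay below it, beside 7.21%. The count higher by 1.5-fold is thus near the share of all genes and the count lower by it under that share. By counting error alone, the interval of the FPKM ratio lay above 1 for 30 of the 46 and below 1 for 10, beside 26.7% and 43.9% of all genes. Whether an interval holds 1 also depends on the number of counts. The interval shares of all genes, here and below, were not matched to the 46 for level.

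The direction differed by role. Of the 17 subunits of the 19S cap, 16 were above control, with a median difference of 0.45 log2; of the 14 constitutive barrel subunits 12 were, with a median of 0.18. All 4 barrel chaperone genes were below control, with a median of -0.45. Cytosolic ribosomal protein genes, another large complex, differed the other way from the subunits: 77 of 82 were below control, with a median of -0.28. Of all genes 60.1% were below control, with a median of -0.13. The contrast between these lists has no replicate check.

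**Figure D2:**
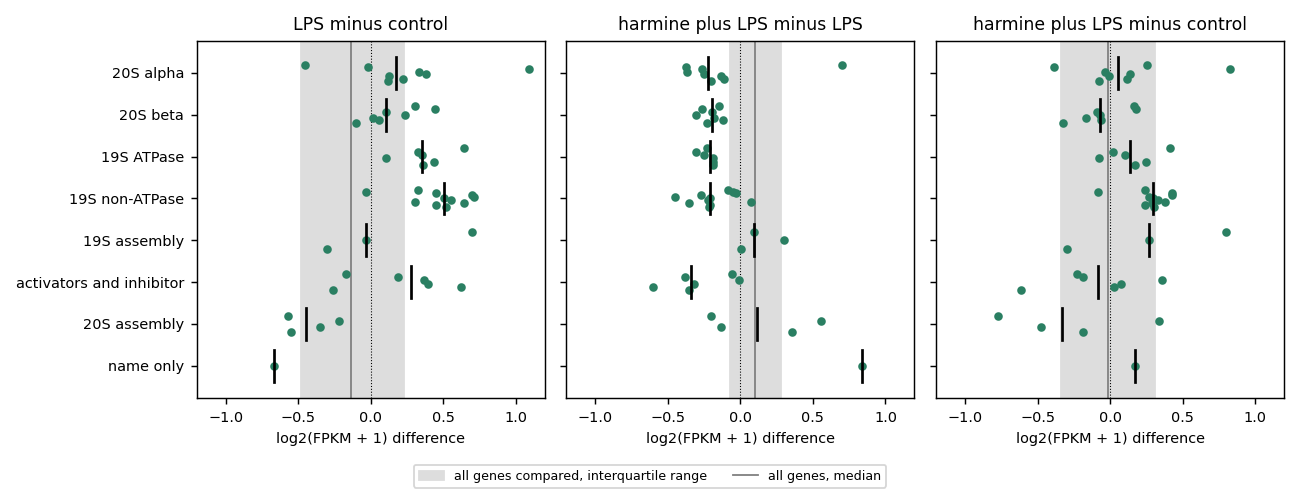
Difference in log2(FPKM + 1) of each gene by role in the 3 comparisons; a black bar is the median of the role, the grey line the median of all genes compared and the grey band their interquartile range. In LPS minus control the cap subunits lie right of the grey line and the 20S assembly genes left of it, and in harmine plus LPS minus LPS the barrel and cap subunits other than Psma8 and Psmd4 lie left of 0.

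Psma6, an alpha subunit, stood out from the other subunits. It had 244 FPKM in harmine plus LPS, 294 FPKM in LPS and 138 FPKM in control. The LPS library was highest and control lowest, an FPKM ratio of LPS to control of 2.14 (2.04 to 2.24), where the range in brackets is here and below a 95% interval for counting error only. The next highest ratio among the alpha subunits was that of Psma4, 1.31 (1.25 to 1.37), with Psma5 at 1.26 (1.204 to 1.32) and Psma2 at 1.17 (1.11 to 1.24). Psma1 and Psma3 had ratios of 1.09 (1.03 to 1.14) and 1.09 (1.02 to 1.17), and that of Psma7, 0.986 (0.938 to 1.04), had an interval that held 1. Psma6 lies on chromosome 12, at 55384222 to 55418454 in the deposited table. The nearest gene with at least 1 FPKM on its higher-coordinate side was Nfkbia, the gene of the NF-kB inhibitor that the proteasome degrades, which begins 70956 bases further on; it had 346 FPKM in harmine plus LPS, 338 FPKM in LPS and 38.1 FPKM in control. Nfkbia was chosen after its values were seen, and the nearest such gene on the other side, Prorp, had 7.20 FPKM in harmine plus LPS, 4.96 FPKM in LPS and 4.47 FPKM in control.

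RefSeq on GRCm38.p6 lists 2 start regions for Psma6, and both are printed since it was the gene that differed most. They are followed by those of Psmd8, the cap subunit with the highest difference, Psmb6, a catalytic subunit, and Psmg1 and Psmg4, barrel chaperones that were lower. Each is the stretch up to 250 bases ahead of the start, 5′ to 3′ on the gene's strand, shortened where a GENCODE M21 exon of the gene begins inside it. Capitals mark CCAAT boxes (CCAAT), GC boxes (GGGCGG) and the core of the antioxidant response element bound by NRF1 and NRF2 (TGACNNNGC), each on either strand.
Psma6, upstream start, chr12:55383972-55384221, plus strand: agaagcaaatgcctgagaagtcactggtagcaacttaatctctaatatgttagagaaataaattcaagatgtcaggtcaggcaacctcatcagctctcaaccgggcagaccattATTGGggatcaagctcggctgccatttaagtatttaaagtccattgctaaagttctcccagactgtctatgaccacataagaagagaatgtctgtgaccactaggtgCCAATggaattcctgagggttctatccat
Psma6, downstream start, chr12:55398575-55398774, plus strand: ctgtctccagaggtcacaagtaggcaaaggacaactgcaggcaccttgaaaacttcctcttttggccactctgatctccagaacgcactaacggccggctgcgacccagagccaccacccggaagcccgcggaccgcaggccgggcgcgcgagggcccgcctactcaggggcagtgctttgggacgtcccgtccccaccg
Psmd8, chr7:29180702-29180923, minus strand: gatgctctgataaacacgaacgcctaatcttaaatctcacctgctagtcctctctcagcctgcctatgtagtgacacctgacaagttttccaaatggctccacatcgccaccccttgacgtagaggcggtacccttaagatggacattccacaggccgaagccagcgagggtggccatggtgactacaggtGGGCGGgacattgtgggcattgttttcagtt
Psmb6, chr11:70525107-70525356, plus strand: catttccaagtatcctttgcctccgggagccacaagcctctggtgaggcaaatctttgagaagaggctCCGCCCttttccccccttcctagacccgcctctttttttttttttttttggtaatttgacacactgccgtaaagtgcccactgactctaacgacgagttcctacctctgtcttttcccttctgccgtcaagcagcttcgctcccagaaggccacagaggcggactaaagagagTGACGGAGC
Psmg1, chr16:95990961-95991210, minus strand: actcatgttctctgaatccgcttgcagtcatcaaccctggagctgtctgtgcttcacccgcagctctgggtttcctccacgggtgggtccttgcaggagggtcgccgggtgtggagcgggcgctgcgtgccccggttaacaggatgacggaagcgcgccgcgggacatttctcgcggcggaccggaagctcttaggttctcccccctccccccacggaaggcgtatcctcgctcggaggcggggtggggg
Psmg4, chr13:34162714-34162963, plus strand: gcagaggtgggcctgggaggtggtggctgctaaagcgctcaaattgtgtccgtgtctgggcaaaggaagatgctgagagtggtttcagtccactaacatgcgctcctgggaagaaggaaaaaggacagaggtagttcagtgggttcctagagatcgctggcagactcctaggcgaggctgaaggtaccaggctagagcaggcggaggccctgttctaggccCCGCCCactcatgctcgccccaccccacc

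The upstream Psma6 window holds 2 CCAAT boxes and the downstream one none of the motifs. Start regions were found for 38 of the 46 genes, 41 windows in all; those of Psma8, Psmb1, Psmb2, Psmb7, Psmc3, Psmd3, Psmd7 and Psmg2 are not used here. Over the 250 bases ahead of the start, 53.7% of these windows held a GC box, beside 32.7% of all 32851 windows, 31.7% a CCAAT box, beside 33.8%, and 12.2% an antioxidant core, beside 10.2%. The antioxidant core was found for Psmb5, Psmb6, Psmc6, Psmd12 and Psmd9. An interferon-stimulated response element core (GAAA, any 2 bases, GAAA) was found for Psmb3, Psmd4 and Psmd9, in 7.32% of the windows beside 2.98% of all, and a kappa B motif (GGGA, any 2 bases, TTCC) for Psme4 alone, 2.44% beside 1.21%. A match of letters describes these windows and says nothing of binding.

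Among the beta subunits the LPS difference was slight. Psmb6, which cuts after acidic residues, had 68.2 FPKM in harmine plus LPS, 82.1 FPKM in LPS and 60.1 FPKM in control, highest in LPS with a ratio to control of 1.37 (1.28 to 1.45). Psmb7, of the trypsin-like site, had 46.7 FPKM in harmine plus LPS, 51.8 FPKM in LPS and 41.7 FPKM in control, again highest in LPS, with a ratio of 1.24 (1.18 to 1.31). Psmb5, of the chymotrypsin-like site that bortezomib blocks, had 57.6 FPKM in harmine plus LPS, 66.1 FPKM in LPS and 61.4 FPKM in control. Its ratio of LPS to control, 1.08 (0.980 to 1.18), had an interval that held 1, as did those of the structural subunits Psmb2 and Psmb3. Of the other structural subunits, Psmb4 had a ratio of 1.18 (1.13 to 1.24) and Psmb1 of 0.930 (0.877 to 0.987), the only beta subunit below control beyond counting error.

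The 6 ATPases that form the base of the cap were all higher in LPS than in control beyond counting error. Psmc6 differed most and had 45.7 FPKM in harmine plus LPS, 53.9 FPKM in LPS and 34.2 FPKM in control, a ratio of LPS to control of 1.58 (1.49 to 1.67). Psmc3 differed least, at 69.9 FPKM in harmine plus LPS, 79.7 FPKM in LPS and 73.9 FPKM in control, a ratio of 1.08 (1.03 to 1.13). Psmc1, Psmc2, Psmc4 and Psmc5 lay between, with differences of 0.36, 0.44, 0.36 and 0.33 log2.

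Of the 11 cap subunits without ATPase activity, 10 were higher in LPS than in control, and their median difference, 0.50 log2, was the highest of any role. Psmd8, a lid subunit on chromosome 7 at 29174188 to 29180673, had 79.4 FPKM in harmine plus LPS, 109 FPKM in LPS and 65.9 FPKM in control, a ratio of LPS to control of 1.65 (1.58 to 1.73). Psmd11, another lid subunit, had 30.7 FPKM in harmine plus LPS, 37.4 FPKM in LPS and 22.6 FPKM in control, with a ratio of 1.65 (1.57 to 1.74). Psmd3, which helps hold the lid together, had 48.2 FPKM in harmine plus LPS, 61.9 FPKM in LPS and 39.4 FPKM in control, with a ratio of 1.57 (1.505 to 1.65). All 3 were highest in LPS and lowest in control. The large scaffold subunits Psmd1 and Psmd2, which dock ubiquitin receptors, had ratios of 1.45 (1.39 to 1.51) and 1.37 (1.32 to 1.41), and Psmd14, the enzyme that cuts ubiquitin chains off substrates, one of 1.26 (1.19 to 1.33). The lid subunits Psmd6, Psmd7 and Psmd12 had ratios of 1.48 (1.38 to 1.59), 1.42 (1.35 to 1.499) and 1.38 (1.30 to 1.45); Psmd12 was at 71.1 FPKM in harmine plus LPS, 72.6 FPKM in LPS and 52.7 FPKM in control, high in both LPS libraries. Psmd4, a ubiquitin receptor, had 97.5 FPKM in harmine plus LPS, 92.8 FPKM in LPS and 75.0 FPKM in control, highest in harmine plus LPS and lowest in control. Psmd13 was the exception in LPS, with 34.9 FPKM in harmine plus LPS, 36.2 FPKM in LPS and 37.0 FPKM in control and a ratio to control of 0.979 (0.919 to 1.04); a predicted gene on the same strand, Gm15542, overlaps it at 16.6 to 25.1 FPKM, so reads could be split between them.

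**Figure D3:**
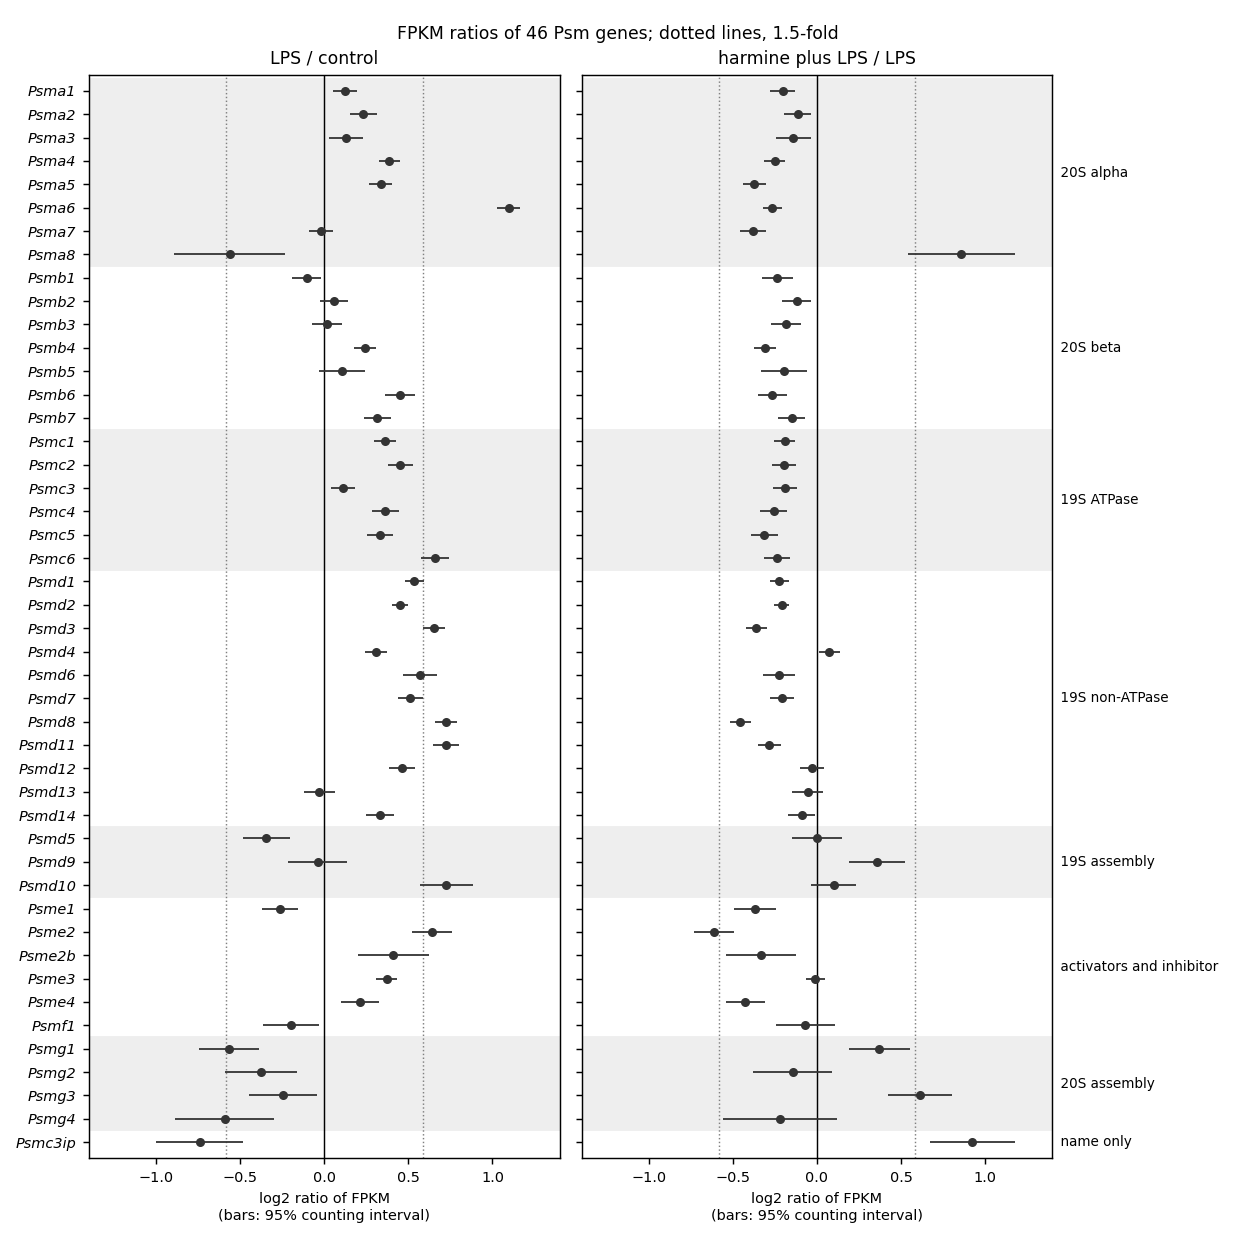
Log2 FPKM ratio of each gene in LPS over control (left) and harmine plus LPS over LPS (right), with 95% counting intervals as bars and dotted lines at 1.5-fold. Cap subunits lie right of 0 on the left except Psmd13, and on the right 30 of the 31 constitutive subunits lie left of 0.

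The chaperones that assemble the 20S barrel were all lower in LPS than in control. Psmg1, which pairs with Psmg2 to line up the alpha ring, had 27.0 FPKM in harmine plus LPS, 20.9 FPKM in LPS and 30.9 FPKM in control, lowest in LPS with a ratio to control of 0.674 (0.596 to 0.762). Psmg2 had 10.6 FPKM in harmine plus LPS, 11.7 FPKM in LPS and 15.2 FPKM in control, with a ratio of 0.771 (0.664 to 0.894). Psmg4, which pairs with Psmg3, had 15.8 FPKM in harmine plus LPS, 18.4 FPKM in LPS and 27.8 FPKM in control; control was highest, and LPS to control gave 0.663 (0.539 to 0.813) from 615 and 1021 counts. Psmg3 had 12.7 FPKM in harmine plus LPS, 8.34 FPKM in LPS and 9.89 FPKM in control, lowest in LPS with a ratio to control of 0.844 (0.734 to 0.970). None of the 4 passed 1.5-fold on the log2(FPKM + 1) scale in this comparison, and all 4 had counting intervals below 1.

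The chaperones of the 19S cap differed among themselves. Psmd10, or gankyrin, on chromosome X at 140948429 to 140956728, had 40.6 FPKM in harmine plus LPS, 37.9 FPKM in LPS and 22.9 FPKM in control: both LPS libraries were high and control low, with a ratio of LPS to control of 1.65 (1.48 to 1.84). Psmd5 had 6.60 FPKM in harmine plus LPS, 6.60 FPKM in LPS and 8.38 FPKM in control, control being highest, with a ratio of LPS to control of 0.788 (0.715 to 0.868). Psmd9 had 5.98 FPKM in harmine plus LPS, 4.67 FPKM in LPS and 4.80 FPKM in control, and its LPS to control ratio, 0.973 (0.862 to 1.10), had an interval that held 1.

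Psme1 and Psme2 encode the alpha and beta subunits of the 11S activator PA28, which are built into 1 ring and are known interferon targets. They lie near each other on chromosome 14, Psme1 at 55578123 to 55581528 and Psme2 at 55587441 to 55591113, on opposite strands. In LPS they went opposite ways. Psme2 had 34.7 FPKM in harmine plus LPS, 53.1 FPKM in LPS and 34.1 FPKM in control, highest in LPS with a ratio to control of 1.56 (1.44 to 1.69). Psme1 had 28.0 FPKM in harmine plus LPS, 36.1 FPKM in LPS and 43.3 FPKM in control, highest in control and lowest in harmine plus LPS, with a ratio of LPS to control of 0.833 (0.772 to 0.899). Psme2b, the near copy of Psme2, had 26.4 FPKM in harmine plus LPS, 33.2 FPKM in LPS and 25.0 FPKM in control; its annotated transcript is 99.4% identical to that of Psme2 over 794 aligned bases, so reads of the 2 genes could be exchanged and both values are uncertain. The same holds for Psma5 and its pseudogene Psma5-ps, 98.6% identical over 952 bases, at 15.7 FPKM in harmine plus LPS, 19.4 FPKM in LPS and 16.4 FPKM in control.

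Psme3, the nuclear activator PA28 gamma, had 105 FPKM in harmine plus LPS, 106 FPKM in LPS and 82.0 FPKM in control: both LPS libraries were alike and above control, with a ratio of LPS to control of 1.29 (1.24 to 1.35). Psme4, the activator PA200, had 8.02 FPKM in harmine plus LPS, 10.8 FPKM in LPS and 9.30 FPKM in control, highest in LPS. Psmf1, the inhibitor PI31, had 5.20 FPKM in harmine plus LPS, 5.45 FPKM in LPS and 6.26 FPKM in control, highest in control with a ratio of LPS to control of 0.870 (0.775 to 0.977).

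None of the immunoproteasome genes, which the naming rule leaves out, was above control in LPS. Psmb8 had 8.78 FPKM in harmine plus LPS, 11.3 FPKM in LPS and 11.6 FPKM in control. For Psmb9 the levels were 1.43 FPKM in harmine plus LPS, 1.93 FPKM in LPS and 2.59 FPKM in control. Those of Psmb10 were 11.8 FPKM in harmine plus LPS, 16.4 FPKM in LPS and 20.1 FPKM in control. Control was the highest library for each, and the ratio of LPS to control was 0.974 (0.869 to 1.09) for Psmb8, 0.746 (0.578 to 0.959) for Psmb9 and 0.818 (0.719 to 0.929) for Psmb10. Per length, Psmb5, Psmb6 and Psmb7 thus exceeded their replacements Psmb8, Psmb9 and Psmb10 in each library.

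**Figure D4:**
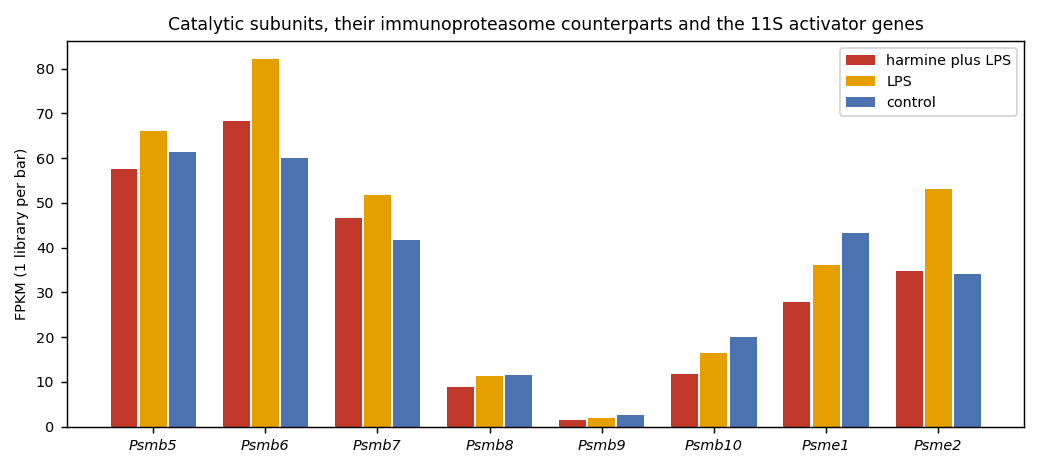
FPKM, 1 library per bar, of the constitutive catalytic subunits, their immunoproteasome counterparts and the 11S activator genes. Psmb5, Psmb6, Psmb7 and Psme2 are highest in LPS, while Psmb8, Psmb9, Psmb10 and Psme1 are highest in control.

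The second comparison asked how these genes differed when harmine was given before LPS; it shares the LPS library with the first. Most proteasome genes were a little lower with harmine than with LPS alone: 38 of the 46 were below and 8 above, while 34.4% of the 12197 genes compared were below and 65.6% above. Of the 5395 that reached 10 FPKM, 37.5% were below and 62.5% above. The median difference of the 46, harmine plus LPS minus LPS, was -0.20 log2 against 0.10 for all genes, and the summed level was 2660 FPKM in harmine plus LPS and 3074 FPKM in LPS. Single genes differed little: 2 lay at least 1.5-fold above LPS, beside 5.3% of all genes, and 1 that far below, beside 3.35%. At 2-fold there was none above, beside 0.664%, and none below, beside 0.935%. For 32 of the 46 the counting interval lay below 1, beside 15.4% of all genes, and for 6 above it, beside 36.6%.

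The difference was common to barrel and cap. The 6 ATPases lay between -0.31 and -0.19 log2, the 7 beta subunits between -0.31 and -0.12, the 7 alpha subunits other than Psma8 between -0.37 and -0.11, and the 11 cap subunits without ATPase activity between -0.45 and 0.07. All 14 constitutive barrel subunits and 16 of 17 cap subunits were lower in harmine plus LPS than in LPS. Their medians were -0.21 log2 for both, and the SD over the 31 genes was 0.11 log2, beside 0.35 over all genes with at least 10 FPKM. A narrow spread was not particular to the proteasome: the SD over the 82 ribosomal protein genes was 0.14 log2. The exception was Psmd4, at 97.5 FPKM in harmine plus LPS and 92.8 FPKM in LPS, a ratio of 1.05 (1.01 to 1.10). The ribosomal protein genes had a median of 0.02 log2, with 34 of 82 lower, beside 0.10 log2 and 34.4% for all genes. Relative to all genes their median was -0.08 log2 as deposited. After rescaling by median of ratios the all-gene median became -0.02 log2 and the median of the 46 -0.34, with 41 of the 46 below LPS; relative to all genes the 46 stood at -0.30 log2 as deposited and -0.32 after rescaling.

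Psme2 differed most downward, at 34.7 FPKM in harmine plus LPS and 53.1 FPKM in LPS, a ratio of 0.653 (0.601 to 0.709); control had 34.1 FPKM. Psmd8 came next, with a ratio of harmine plus LPS to LPS of 0.729 (0.699 to 0.761), followed by Psme4 at 0.745 (0.687 to 0.807) and Psma7 at 0.769 (0.728 to 0.812). Psma7, an alpha subunit, was at 48.4 FPKM in harmine plus LPS, 63.0 FPKM in LPS and 63.8 FPKM in control. LPS and control were alike and harmine plus LPS was low. The catalytic subunits had ratios of 0.872 (0.792 to 0.959) for Psmb5, 0.831 (0.782 to 0.882) for Psmb6 and 0.901 (0.853 to 0.951) for Psmb7. Psma6, the gene most different with LPS, had a ratio of 0.831 (0.799 to 0.864).

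Upward, the 2 genes past 1.5-fold on the log2(FPKM + 1) scale were Psmc3ip and Psma8; with a pseudocount of 0.1 FPKM the count was 3, and after rescaling by median of ratios 1. Psmc3ip, on chromosome 11 at 101091823 to 101095436, had 13.5 FPKM in harmine plus LPS, 7.15 FPKM in LPS and 12.0 FPKM in control, lowest in LPS; its ratio of harmine plus LPS to LPS was 1.89 (1.59 to 2.26) and that of LPS to control 0.598 (0.500 to 0.714). The gene Mlx, at 34.0 FPKM in LPS, overlaps it by 385 bases on the opposite strand; 9 of the 46 genes overlap another gene with at least 1 FPKM, and the sources used here do not say whether counting used strand. Psma8 had 6.06 FPKM in harmine plus LPS, 3.34 FPKM in LPS and 4.94 FPKM in control, again lowest in LPS, with a ratio of harmine plus LPS to LPS of 1.81 (1.45 to 2.26) from 969 and 504 counts. Among the chaperones, Psmg3 had a ratio of 1.53 (1.34 to 1.75), which passes 1.5-fold on plain FPKM but not on the log2(FPKM + 1) scale, Psmg1 of 1.29 (1.14 to 1.47) and Psmd9 of 1.28 (1.14 to 1.44). For Psmg2, Psmg4, Psmd5 and Psmd10 the interval held 1.

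The third comparison set harmine plus LPS against control, and shares a library with each of the others. Of the 46 genes 28 were above control and 18 below, beside 48.8% and 51.2% of all genes and 46.5% and 53.5% of those that reached 10 FPKM. The counting interval lay above 1 for 24 and below 1 for 13, beside 32.8% and 35.2%. The median difference was 0.12 log2, against -0.02 for all genes; after rescaling by median of ratios it was 0.036 log2, against -0.09 for all genes. Of the cap subunits 15 of 17 stayed above control, with a median of 0.26 log2, and of the barrel subunits 5 of 14, with a median of -0.05. The cap already had the higher median in LPS against control, 0.45 log2 against 0.18 for the barrel. What differs here is that the barrel median lies slightly below 0. At 1.5-fold or more 2 genes were higher, Psma6 with a ratio of 1.78 (1.70 to 1.86) and Psmd10 with 1.77 (1.59 to 1.97), beside 12.3% of all genes. As many were lower, Psmg4 with 0.570 (0.461 to 0.703) and Psme1 with 0.646 (0.596 to 0.699), beside 13.5%. Next to these came Psmd12, with 1.35 (1.28 to 1.42), and Psmd11, with 1.36 (1.29 to 1.43), on the higher side and Psmg2, with 0.698 (0.600 to 0.811), and Psma7, with 0.758 (0.719 to 0.800), on the lower. None passed 2-fold, beside 5.14% higher and 4.86% lower of all genes.

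Of the other genes of the pathway, 39 on lists drawn up from known roles were in the table and 38 of them, all but Nfe2l3, had at least 1 FPKM. In LPS against control 7 of the 38 exceeded control by at least 1.5-fold, beside 11.7% of all genes, and none lay that far below it, beside 19.3%. The median was 0.08 log2, and 23 of the 38 lay above control, beside 39.8% of all genes. Adrm1, a ubiquitin receptor of the cap whose symbol is outside the naming rule, had 31.2 FPKM in harmine plus LPS, 40.6 FPKM in LPS and 24.3 FPKM in control, a ratio of LPS to control of 1.67 (1.57 to 1.77), in the range of the cap subunits. Pomp, the maturation chaperone of the barrel, had 17.3 FPKM in harmine plus LPS, 20.2 FPKM in LPS and 19.8 FPKM in control and a ratio of 1.02 (0.953 to 1.09). Sem1, a small lid subunit, had a ratio of 0.902 (0.827 to 0.984).

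Nfe2l1, the gene of NRF1, the transcription factor known to drive proteasome genes when proteasome capacity is short, had 37.8 FPKM in harmine plus LPS, 43.1 FPKM in LPS and 29.1 FPKM in control, highest in LPS and lowest in control, with a ratio of LPS to control of 1.48 (1.41 to 1.56). Nfe2l2, the gene of NRF2, had 25.7 FPKM in harmine plus LPS, 28.2 FPKM in LPS and 37.1 FPKM in control, highest in control. Ddi2, the protease that activates NRF1, had 9.41 FPKM in harmine plus LPS, 9.14 FPKM in LPS and 12.7 FPKM in control, also highest in control. Of the small MAF partners of both factors, Maff had 3.87 FPKM in harmine plus LPS, 8.82 FPKM in LPS and 0.882 FPKM in control. Mafk was at 14.2 FPKM in harmine plus LPS, 15.1 FPKM in LPS and 6.50 FPKM in control. Both were lowest in control, while Mafg had a ratio of LPS to control of 1.04 (0.971 to 1.11).

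Vcp, the gene of p97, which extracts substrates for the proteasome, had 122 FPKM in harmine plus LPS, 166 FPKM in LPS and 113 FPKM in control, highest in LPS. Its ratio of LPS to control was 1.47 (1.43 to 1.51) and that of harmine plus LPS to LPS 0.731 (0.712 to 0.751). Its cofactor Nploc4 had an LPS to control ratio of 1.56 (1.47 to 1.65), and 5 of the 6 genes of this list were above control, beside 39.8% of all genes. Zfand5 and Zfand2a, whose proteins bind the proteasome, had LPS to control ratios of 1.897 (1.72 to 2.09) and 1.70 (1.496 to 1.94), and Uba6, a second ubiquitin-activating enzyme, one of 2.09 (1.89 to 2.31). The bound deubiquitinases Usp14 and Uchl5 had ratios of 1.06 (1.02 to 1.11) and 0.852 (0.788 to 0.922).

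With harmine plus LPS against LPS, 28 of the 38 pathway genes were lower, beside 34.4% of all genes, with a median of -0.12 log2. By 1.5-fold 1 was lower, beside 3.35% of all genes: Maff, with a ratio of 0.439 (0.361 to 0.530). Ubb, a polyubiquitin gene, had 332 FPKM in harmine plus LPS, 429 FPKM in LPS and 322 FPKM in control, highest in LPS.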

How the data were processed

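RNA of 3 RAW264.7 libraries, 1 each of harmine plus LPS, LPS and control, was sequenced as paired ends after poly(A) selection and dUTP strand marking, per the labels' protocols. The authors deposited 1 table with FPKM values and estimated counts per gene, per the file headers. The submitters' processing notes name build mm10, HISAT2 2.2.1, cutadapt 1.9, edgeR, DESeq2 and StringTie 2.1.6, with no role for any of them. The deposited counts were whole numbers, but more genes stood at 4 than at 3 (994 against 619 in harmine plus LPS, 1096 against 573 in LPS, 1072 against 566 in control), so 4 counts were taken as 1 read pair in the counting intervals, a reading the files do not state. Those intervals are 95% exact binomial (Clopper-Pearson) intervals of the 2 libraries' pairs, put on the FPKM ratio; they cover counting error only, and PCR copies are not independent molecules.

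Differences are on the log2(FPKM + 1) scale, which understates those of low genes, over the 12197 genes that reached 1 FPKM in any library; folds of 1.5 and 2 were used as descriptive thresholds. No p-value was computed, since each group holds 1 library. The calculation was tested on simulated data that held counting error only, with 4 counts again taken as 1 read pair. Such data cannot check that reading of the counts or the spread between cultures. The members, gene lists and thresholds were chosen with earlier results of these data known. Named are the 4 highest and 4 lowest genes per comparison, all genes past 1.5-fold, the catalytic subunits, activators, inhibitor and chaperones, beside examples of the other roles. Start regions came from RefSeq on GRCm38.p6 and transcripts from GENCODE M21. Python 3.11.15, numpy 2.4.6, pandas 2.3.3, scipy 1.17.1, matplotlib 3.10.9 and biopython 1.88 were used. Other pseudocounts, filters and scalings were tried as alternatives.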

Additional observations from a re-analysis of the deposited data

How the results depend on the processing

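Of 126 alternative values of 18 results, 114 stayed near the reported value and 12 moved. No median changed sign, and a count could not be labelled as reversed. Dropping the filter or raising it to 5 FPKM keeps all 46 genes, so the values under those settings could not move. The tally thus overstates how far the results were tried. For a count, near means within 1.5 times. For a median it means within the typical counting half-width of a single gene, about 0.08 log2. That is not the counting error of a median over 46 genes. With a pseudocount of 5 FPKM, the count of genes 1.5-fold or more lower in LPS than in control was 0, that of genes higher in harmine plus LPS than in LPS 1 and lower 0, and that of genes lower in harmine plus LPS than in control 1; with 0.1 FPKM, 2 genes were lower in LPS than in control. After rescaling by median of ratios, harmine plus LPS against LPS had 1 gene higher and 2 lower by 1.5-fold, a median of -0.34 log2 and 5 of 46 genes above 0, and harmine plus LPS against control a median of 0.036 log2. Without Psmc3ip, Psma8 and Psme2b, an alternative chosen after seeing the data, as were the counts above 0 under each setting, no gene was 1.5-fold lower in LPS than in control (0) and none higher in harmine plus LPS than in LPS (0). No paired analysis was possible because each group holds 1 library, and no library could be left out for the same reason. Counting depth leaves 6 of the 46 genes in LPS against control, 8 in harmine plus LPS against LPS and 9 in harmine plus LPS against control with an interval that holds 1, and the lowest value is 504 counts. The spread between cultures is not known.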
